A study of Mus musculus with 6 samples.

Results

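The genes analysed here build the machinery by which cells show peptides and lipids to lymphocytes, and were followed in whole mouse uterus with and without *Foxo1*. Members were chosen by gene symbol, with earlier results of these data known, as every gene whose symbol begins with H2-, together with *B2m*, *Tap1*, *Tap2*, *Tapbp*, *Tapbpl*, *Psmb8*, *Psmb9*, *Psmb10*, *Psme1*, *Psme2*, *Erap1*, *Cd74*, *Ciita*, *Cd1d1*, *Cd1d2* and *Mr1*. The rule took 60 of the 23420 genes counted. Of these, 31 are class I heavy chain genes of the H2 complex, the major histocompatibility complex (MHC) of the mouse, and 12 belong to the class II pathway. Another 10 supply or load peptides, *B2m* encodes the light chain of class I, 3 encode class I-like molecules outside the H2 complex, and 3 carry an H2 symbol but encode no antigen-presenting molecule.

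RNA was sequenced from uteri of 8 week old C57BL/6J females whose pseudopregnancy, set off by vasectomized males, had reached day 4.5, a stage at which the uterus has been prepared by ovarian hormones in the absence of embryos. The control females were *Foxo1f/f*, with loxP-flanked *Foxo1* alleles and no Cre. The *Foxo1d/d* females were *Foxo1f/f* and also carried PgrCre/+, a Cre knocked into the progesterone receptor locus, so that they also differ from controls in Cre and in 1 *Pgr* allele. Each genotype had 3 libraries, each made from the pooled RNA of 2 females. PgrCre acts from birth in uterine epithelium and stroma and also in the pituitary and in ovarian granulosa cells, so that the uterus is not the sole tissue without *Foxo1*, and uterine blood vessels keep FOXO1. The values are the authors' mean raw counts over the libraries of a genotype, which sum to 26125014 for *Foxo1f/f* and to 27257963 for *Foxo1d/d*. The single libraries were not analysed here, so no value carries a spread between pools and no difference was tested.

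Class I molecules are heterodimers of a heavy chain and *B2m* that carry peptides cut by the proteasome, moved into the endoplasmic reticulum by the TAP transporter and trimmed there, and nearly all nucleated cells display them to CD8 T cells and NK cells. Class II molecules are dimers of an alpha and a beta chain that meet their peptides in endosomes under the control of the invariant chain CD74 and of H2-DM, and are made mainly by dendritic cells, macrophages and B cells, and by epithelia under interferon gamma. NLRC5 and CIITA are the coactivators of class I and class II genes, respectively. In the uterus, where NK cells, macrophages and dendritic cells are abundant around implantation, these molecules are studied for their part in maternal tolerance.

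*Foxo1* itself averaged 3941 counts per library in the controls and 1456 in *Foxo1d/d*. The ratio of *Foxo1d/d* to *Foxo1f/f* was -1.50 on the log2 scale, and all log2 ratios below have this direction. Its 95% counting interval, from -1.55 to -1.45, is a Wilson interval from the summed counts and, like all intervals below, covers counting error only. *Foxo1* RNA was thus 2.82-fold lower in *Foxo1d/d* but still present, and which cells held the rest was not analysed here. The conditional allele loses 1 coding exon, and counts of the gene include reads from its other exons. The uterine steroid receptors were abundant in both genotypes, with log2 ratios of 0.20 for *Pgr* and 0.06 for *Esr1*.

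Most members were higher in *Foxo1d/d*. Of the 60 members, 43 averaged at least 10 counts across the genotypes, and numbers of members and medians are given over those 43. Their log2 ratio, taken after adding a pseudocount of 1 and scaling to the total of each genotype, was above 0 in 35 of 43 members, against 55.1% of the 15696 genes that averaged 10 or more. It was over 1.5-fold higher in 13 members (30.2%), against 5.43% of all genes, and over 1.5-fold lower in 0 members, against 3.51%. The median log2 ratio was 0.37 over the members and 0.02 over all genes. Of the 13 members, 7 had few counts, and among members that averaged at least 100 the number was 6 of 36, against 3.17% of 12950 genes. Together the 60 members held 0.326% of the counts of *Foxo1f/f* and 0.422% of those of *Foxo1d/d*.

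**Figure D1:**
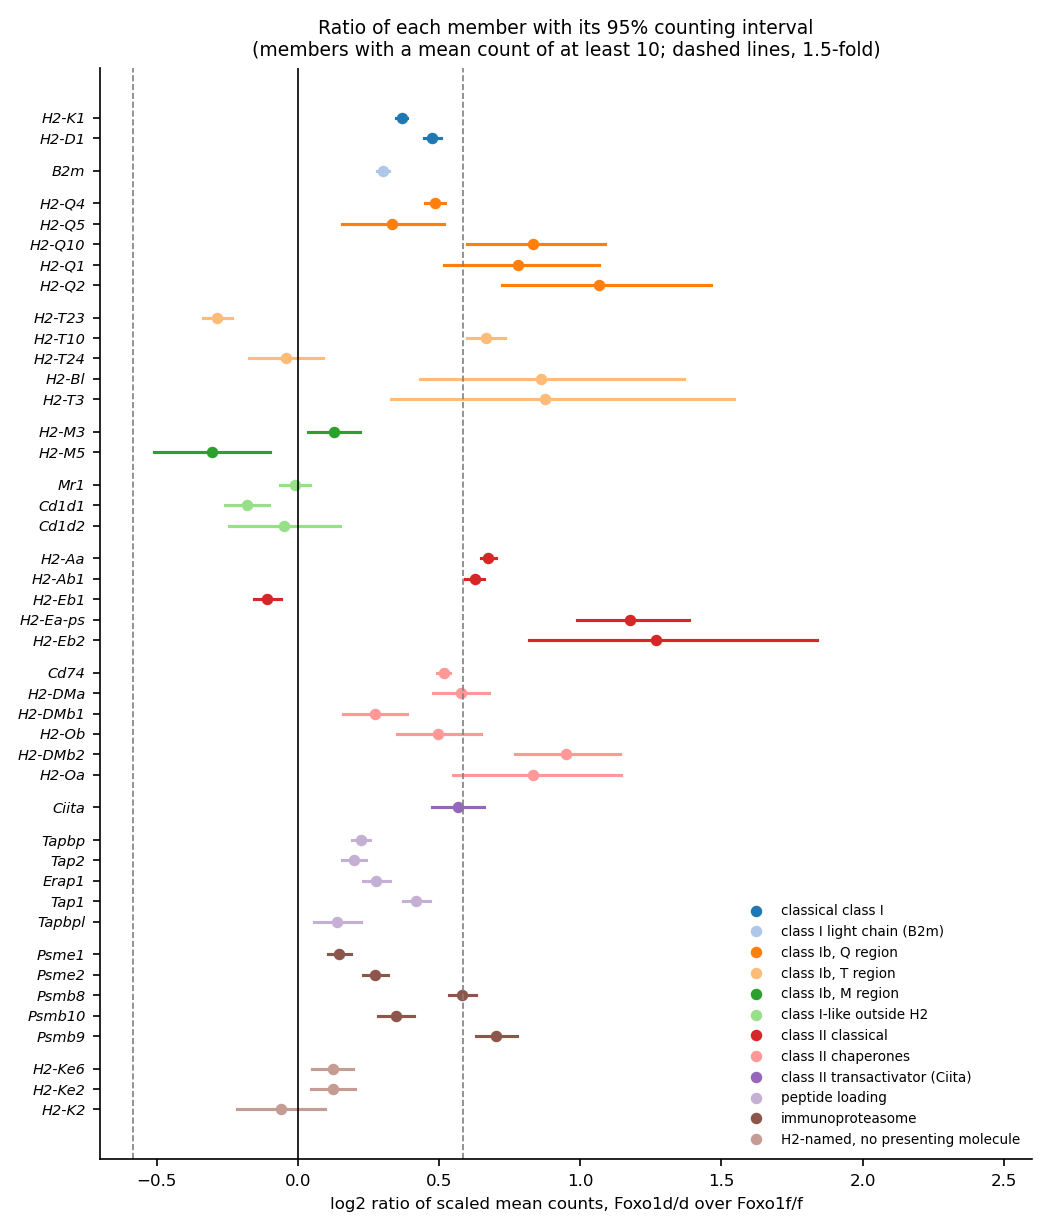
Log2 ratio of scaled mean counts, *Foxo1d/d* over *Foxo1f/f*, for the 43 members that averaged 10 or more counts, grouped and coloured by class. Points are ratios, bars are 95% counting intervals, the solid line marks equal counts and the dashed lines 1.5-fold; 35 points lie above 0 and no point lies left of the lower dashed line.

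The classical class I genes and their light chain were moderately higher. Of each gene the mean count in *Foxo1f/f* is given first and that in *Foxo1d/d* after it. *H2-K1*, the heavy chain gene with the most counts, had 12208 and 16433, which is 0.37 on the log2 scale (95% counting interval 0.35 to 0.39). *H2-D1* had 4838 and 7020, a log2 ratio of 0.48 (0.45 to 0.51). *B2m* had 10195 and 13103, a log2 ratio of 0.30 (0.28 to 0.32). None of the 3 passed 1.5-fold, and summed they were 1.29-fold higher. To compare levels between genes, counts were scaled to a total of 1000000 per genotype (CPM) and divided by the length in kb of the gene's longest RefSeq transcript. On that scale *B2m* was the member with the highest level in both genotypes, at 454 CPM per kb in the controls and 559 in *Foxo1d/d*. *H2-K1* followed with 289 and 372, and *H2-D1* had 88.1 and 123. With the length of all exons in place of a transcript's, *B2m* again came first, and *Cd74*, at 183 CPM per kb of *Foxo1f/f*, came before *H2-K1*, at 159. The level of the light chain was 157% of that of *H2-K1* in the controls (285% with all exons) and 150% in *Foxo1d/d*.

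**Figure D2:**
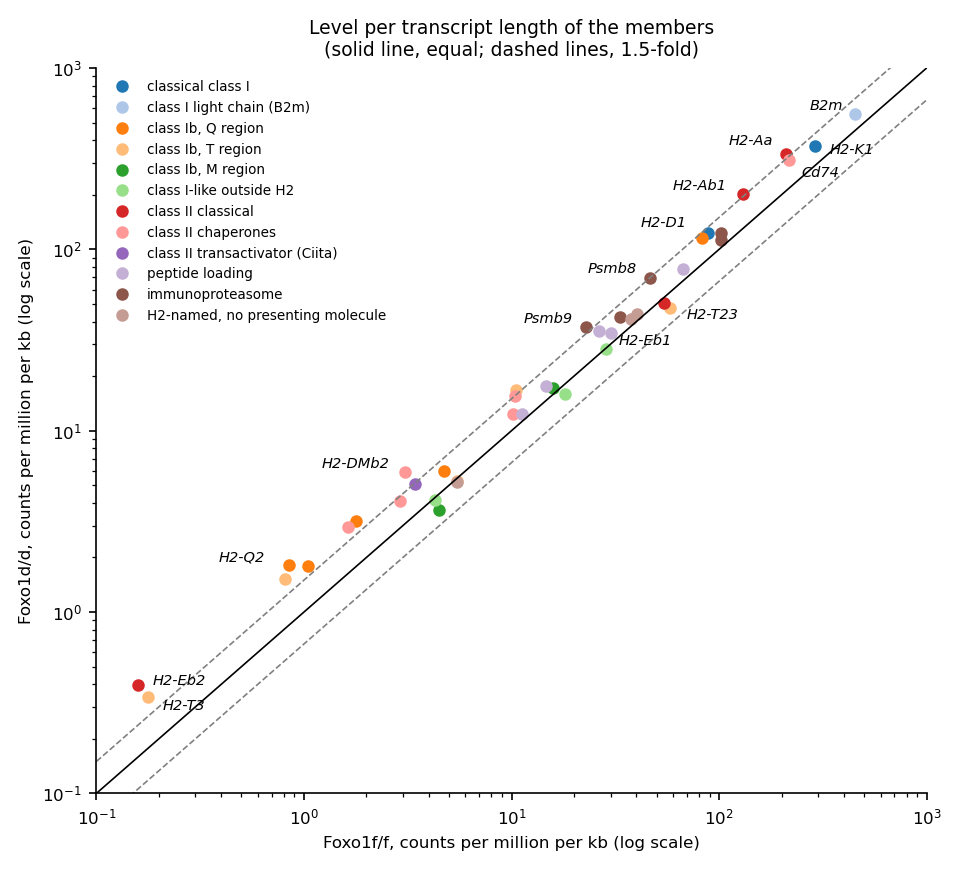
Level of each counted member with a RefSeq transcript length in *Foxo1f/f* (x axis) and *Foxo1d/d* (y axis), in CPM per kb of transcript, both on log axes. The solid line marks equal levels and the dashed lines 1.5-fold; *B2m*, *H2-K1*, *Cd74* and *H2-Aa* lie at the top, and *H2-T23* and *H2-Eb1* lie below the line of equal levels.

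The promoters of these 3 genes are shown because the genes were higher together. The 250 bases before the start are given from RefSeq on GRCm38.p6, each on the strand of its gene, 5′ to 3′; RefSeq lists 2 starts of *H2-K1*, and the window of the downstream start is shown. Capitals mark matches, on either strand, to 4 short motifs: CCAAT (read as ATTGG on the other strand), GAAANNGAA, TTCNNNGAA and GTAAACA. They are the letters of the Y box bound by NF-Y in MHC promoters, of the interferon-stimulated response element, of the STAT site and of the forkhead site bound by FOXO proteins, in that order. No matches overlapped in the windows shown.
H2-K1, chr17:34000334-34000583, minus strand: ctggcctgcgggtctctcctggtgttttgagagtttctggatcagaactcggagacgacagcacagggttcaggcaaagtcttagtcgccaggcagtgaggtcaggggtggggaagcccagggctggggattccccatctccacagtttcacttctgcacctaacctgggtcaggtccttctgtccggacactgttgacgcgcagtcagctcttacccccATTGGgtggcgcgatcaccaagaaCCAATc
H2-D1, chr17:35262844-35263093, plus strand: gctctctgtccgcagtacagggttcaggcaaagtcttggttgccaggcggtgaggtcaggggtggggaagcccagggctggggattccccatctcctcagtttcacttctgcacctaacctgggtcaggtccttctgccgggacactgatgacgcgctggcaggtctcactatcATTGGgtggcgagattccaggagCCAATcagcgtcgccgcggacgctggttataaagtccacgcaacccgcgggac
B2m, chr2:122147437-122147686, plus strand: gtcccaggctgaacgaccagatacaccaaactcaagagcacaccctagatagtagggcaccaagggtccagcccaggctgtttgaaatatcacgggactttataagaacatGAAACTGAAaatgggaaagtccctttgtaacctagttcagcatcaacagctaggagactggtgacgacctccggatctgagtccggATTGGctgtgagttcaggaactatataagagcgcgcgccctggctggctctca
CCAAT was found in all 3 windows and GAAANNGAA in that of *B2m*. RefSeq windows were matched for 41 members, 28 of them among the 43 counted ones. Of those 28, CCAAT was in 19, against 37.5% of the 27025 genes with a window. GAAANNGAA was in 3 of 28 (*B2m*, *Erap1* and *H2-T23*) against 8.18% of all, and TTCNNNGAA in 3 of 28 (*H2-DMb2*, *H2-M3* and *Psmb8*) against 8.13%. GTAAACA was in 0 of 28, against 3.54%. Over all 41 members with a window, CCAAT was in 32, GAAANNGAA in 4 (*H2-T22* besides the 3), TTCNNNGAA in 4 (*H2-M11* besides the 3) and GTAAACA in 2 (*H2-M1* and *H2-M9*). A match describes letters in a window and was not tested as a site. A window without a match can still hold a site, since sites whose letters or spacing differ from these exact patterns were not marked.

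Among the nonclassical (class Ib) heavy chains, the Q region genes were all higher and the T region genes were divided. *H2-Q4*, the Q gene with the most counts, had 3857 and 5637, a log2 ratio of 0.49 (0.45 to 0.52), close to that of *H2-D1*. *H2-Q5* had 143 and 189, a log2 ratio of 0.34 (0.16 to 0.52). *H2-Q10*, known as a secreted class I molecule of liver, had 68.3 and 128, a log2 ratio of 0.83 (0.60 to 1.09). The remaining counted Q genes had few counts as well. *H2-Q1* had 55 and 99.3, a log2 ratio of 0.78 (0.52 to 1.07). *H2-Q2* had 28 and 62.3, a log2 ratio of 1.07 (0.72 to 1.46), the highest ratio of a counted class I gene. The median log2 ratio over these 5 Q genes was 0.78.

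In the T region the gene with the most counts went the other way. *H2-T23* encodes Qa-1, which shows leader peptides of other class I chains to the NKG2A receptor of NK cells, and had 2222 and 1902, a log2 ratio of -0.29 (-0.34 to -0.23). *H2-T24* was nearly equal, with 310.3 and 315, a log2 ratio of -0.04 (-0.17 to 0.09). *H2-T10*, whose product is a ligand of gamma delta T cells, had 929 and 1539.7, a log2 ratio of 0.67 (0.60 to 0.73). The other T genes were rare. *H2-Bl* had 18.3 and 35.7, a log2 ratio of 0.86 (0.43 to 1.37). *H2-T3*, the thymus leukemia antigen known from intestinal epithelium, had 10.7 and 21.3, a log2 ratio of 0.88 (0.33 to 1.55). In the M region only *H2-M3* and *H2-M5* reached a mean count of 10. *H2-M3*, which presents formylated bacterial peptides, had 594 and 677, a log2 ratio of 0.13 (0.04 to 0.22). *H2-M5* had 137 and 116, a log2 ratio of -0.30 (-0.51 to -0.10), the lowest ratio of the 43 counted members. GENCODE lists *H2-Q5*, *H2-T10*, *H2-Bl* and *Cd1d2* as polymorphic pseudogenes, so their RNA need not give a protein.

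Reads of these paralogs can be shared, and the counts of single class Ib genes are uncertain. To show how far, each 90-base word of a member's longest RefSeq transcript, about the length of a trimmed read, was looked up in the GENCODE transcripts of genes at other places. Shared words made up 0.131% of *H2-K1*, 5.46% of *H2-D1*, 4.40% of *H2-Q4* and 9.11% of *H2-T23*. The share was higher in *H2-Q5* at 16.2% and *H2-Q1* at 14.8%, and 8.58% in *H2-T10*. The transcripts used of *H2-Q2*, *H2-T24*, *H2-T3* and *H2-Bl* shared 0 words, although words of *H2-Q1* occur in another transcript of *H2-Q2*. Words that differ by a base were not counted, which lowers these shares. Reads were paired, so a mate in unshared sequence can place a read whose own word is shared. The shares are thus a guide and not a bound on read sharing. The 17 members with a mean count under 10 were all class I heavy chain genes. Listed at 0 in both genotypes were 9 of them, *H2-M10.1*, *H2-M10.3*, *H2-M10.4*, *H2-M10.5*, *H2-M11*, *H2-Q6*, *H2-Q7*, *H2-Q9* and *H2-T9*. Genes with general roles such as *Oaz1* and *Rpl26* are also listed at 0 in both genotypes, so a 0 in this table need not mean little RNA. The other 8, *H2-L*, *H2-M1*, *H2-M2*, *H2-M9*, *H2-M10.2*, *H2-M10.6*, *H2-Q8* and *H2-T22*, had mean counts of at most 7 in either genotype. *H2-Q6*, *H2-Q7* and *H2-T22* share 21.3%, 18.1% and 18.1% of their words with other genes, and the part of read sharing in their low counts was not tested.

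The class I-like molecules encoded outside the H2 complex did not share the direction of *H2-K1* and *H2-D1*. *Mr1*, which presents microbial vitamin metabolites to mucosal-associated invariant T cells, had 1872 and 1941, a log2 ratio of -0.01 (-0.06 to 0.04). *Cd1d1*, which presents lipids to NKT cells, had 918 and 845, a log2 ratio of -0.18 (-0.26 to -0.10). Its paralog *Cd1d2* had 138 and 139.7, a log2 ratio of -0.05 (-0.24 to 0.15), and shares 26.1% of its 90-base words. All 3 were at or slightly below 0, with a summed level in *Foxo1d/d* 0.958 times that of the controls.

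Most class II genes were higher by larger ratios than *H2-K1* and *H2-D1*, while *H2-Eb1* was slightly lower. *H2-Aa* and *H2-Ab1* encode the alpha and beta chains of I-A, the class II molecule of C57BL/6J mice. *H2-Aa* had 6225 and 10367, a log2 ratio of 0.67 (0.65 to 0.70), which is 1.60-fold. *H2-Ab1* had 4135 and 6658, a log2 ratio of 0.63 (0.59 to 0.66). *H2-Eb1*, the beta chain of I-E, had 2374 and 2298, a log2 ratio of -0.11 (-0.16 to -0.06). Per length, *H2-Eb1* was at 54.4 and 50.5 CPM per kb beside 211 and 337 for *H2-Aa*, so that its level went from 25.8% to 15.0% of that of *H2-Aa* (from 74.5% with the length of all exons). The genes for I-A were thus higher together, by similar ratios, and the neighbouring beta chain gene of I-E was not. Its partner *H2-Ea-ps* is disrupted in the b haplotype of C57BL/6 mice and displays no I-E there. *H2-Ea-ps* nonetheless had 96 and 228 counts, a log2 ratio of 1.18 (0.99 to 1.39). The H2 haplotype carried by the females of each pool was not examined, so a difference in haplotype between the genotypes was not looked for. *H2-Eb2* was rare, with 14 and 36.7, a log2 ratio of 1.27 (0.82 to 1.84), the highest of all 43 members.

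The upstream windows of *H2-Aa* and *H2-Eb1* are set side by side because the genes lie next to each other and their ratios differ. Capitals mark the same motifs, and in both windows the only matches were to CCAAT.
H2-Aa, chr17:34287824-34288073, minus strand: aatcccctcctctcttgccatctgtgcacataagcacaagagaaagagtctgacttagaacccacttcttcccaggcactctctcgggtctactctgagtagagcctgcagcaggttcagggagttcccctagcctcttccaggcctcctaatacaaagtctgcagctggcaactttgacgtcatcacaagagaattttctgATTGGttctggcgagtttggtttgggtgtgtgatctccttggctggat
H2-Eb1, chr17:34305617-34305866, plus strand: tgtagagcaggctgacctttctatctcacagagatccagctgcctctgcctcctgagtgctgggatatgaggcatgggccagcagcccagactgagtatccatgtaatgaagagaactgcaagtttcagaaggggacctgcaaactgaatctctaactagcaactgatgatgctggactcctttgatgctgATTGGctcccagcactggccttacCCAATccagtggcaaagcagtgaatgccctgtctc
CCAAT stood once in the window of *H2-Aa* and at 2 places in that of *H2-Eb1*. CCAAT was also found for the other class II genes with a RefSeq window, *H2-Eb2*, *H2-DMa*, *H2-DMb1*, *H2-DMb2*, *H2-Oa* and *H2-Ob*, while *H2-Ab1*, *H2-Ea-ps*, *Cd74* and *Ciita* were not matched to a window.

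The chaperones of class II and its transactivator were higher in *Foxo1d/d*. *Cd74*, the invariant chain that fills the class II groove until the endosome is reached, had 8007 and 11953, a log2 ratio of 0.52 (0.49 to 0.54). *H2-DMa*, a chain of the peptide exchange factor H2-DM, had 450 and 701, a log2 ratio of 0.58 (0.48 to 0.68). The paralogs *H2-DMb1* and *H2-DMb2* encode its other chain and differed in their ratios. *H2-DMb1* had 374 and 471, a log2 ratio of 0.27 (0.16 to 0.39). *H2-DMb2* had 114 and 230, a log2 ratio of 0.95 (0.77 to 1.14). They share 15.9% and 16.1% of their words, mostly with each other. H2-O restrains H2-DM and is known mainly from B cells and some dendritic cells. *H2-Oa* had 46.3 and 87, a log2 ratio of 0.83 (0.55 to 1.14), and 29.5% of its transcript lies under exons of *BC051537*, so its counts are uncertain. *H2-Ob* had 201 and 297, a log2 ratio of 0.50 (0.35 to 0.65). *Ciita*, the coactivator that class II transcription requires, had 536 and 829, a log2 ratio of 0.57 (0.48 to 0.66). Over the 12 genes of the class II group, 11 were higher and 6 were over 1.5-fold higher. The median log2 ratio of the group was 0.60 and its summed level was 1.45-fold higher.

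Peptide supply genes were all higher, by smaller amounts except for *Psmb8* and *Psmb9*. *Tap1*, a subunit of the peptide transporter, had 2033 and 2838, a log2 ratio of 0.42 (0.37 to 0.47). Its partner *Tap2* had 2705 and 3240, a log2 ratio of 0.20 (0.16 to 0.24). *Tapbp*, the tapasin that bridges class I to TAP, had 5054 and 6158, a log2 ratio of 0.22 (0.19 to 0.25). Tapasin's relative *Tapbpl*, a peptide editor, had 693 and 797, a log2 ratio of 0.14 (0.06 to 0.23). *Erap1*, the aminopeptidase that trims peptides in the endoplasmic reticulum, had 2152 and 2723, a log2 ratio of 0.28 (0.23 to 0.33), with 14.8% of its transcript under exons of *Cast*. The 5 loading genes had a median log2 ratio of 0.22.

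The immunoproteasome replaces the catalytic subunits of the constitutive proteasome by inducible ones encoded by *Psmb8*, *Psmb9* and *Psmb10*. *Psmb8* had 1984 and 3101, a log2 ratio of 0.58 (0.54 to 0.63). *Psmb9* had 809 and 1373, a log2 ratio of 0.70 (0.63 to 0.77), and was the only peptide supply gene over 1.5-fold. *Psmb10* had 1139 and 1512, a log2 ratio of 0.35 (0.28 to 0.41). *Psme1* and *Psme2* encode the PA28 activator that caps the proteasome. *Psme1* had 2963 and 3425, a log2 ratio of 0.15 (0.11 to 0.19). *Psme2* had 2554 and 3225, a log2 ratio of 0.28 (0.23 to 0.32), but 47.4% of its words are shared, all with *Psme2b*.

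*Tap1* and *Psmb9* are transcribed away from each other, with 225 bases between their starts in RefSeq. The window upstream of *Tap1* spans that stretch and is shown because it is common to both genes; capitals mark CCAAT, the only motif of the 4 that was found.
Tap1, chr17:34187306-34187555, plus strand: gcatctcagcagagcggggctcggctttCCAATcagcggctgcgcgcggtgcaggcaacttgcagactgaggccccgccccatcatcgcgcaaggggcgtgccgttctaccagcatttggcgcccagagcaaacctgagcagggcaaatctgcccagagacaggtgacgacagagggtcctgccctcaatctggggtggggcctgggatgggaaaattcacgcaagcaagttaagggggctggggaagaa
*Psmb9* and *Tap1* had log2 ratios of 0.70 and 0.42 on the 2 sides of this stretch. Overlapping exons cover 15.7% of the *Psmb9* transcript and 7.18% of that of *Tap1*, and reads there cannot be told apart without strand.

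The 16 genes of the constitutive proteasome and its other activators were also mostly higher, but by less. Of them, 15 were higher and 0 passed 1.5-fold. The median was 0.18, in a range from -0.07 for *Psme4*, the one with the most counts, to 0.25 for *Psmb3*. Relative to its constitutive counterpart *Psmb5*, the level per length of *Psmb8* went from 141% to 191%. *Psmb9* went from 20.8% to 29.8% of *Psmb6*, and *Psmb10* from 43.6% to 47.3% of *Psmb7*. The shift was thus present for *Psmb8* and *Psmb9* and small for *Psmb10*. Which of *Psmb8* and *Psmb5* is the more abundant depends on the length used, since with all exons of the gene *Psmb8* was at 67.9% of *Psmb5* in the controls. With those lengths *Psmb10* was at 98.9% of *Psmb7* there.

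**Figure D3:**
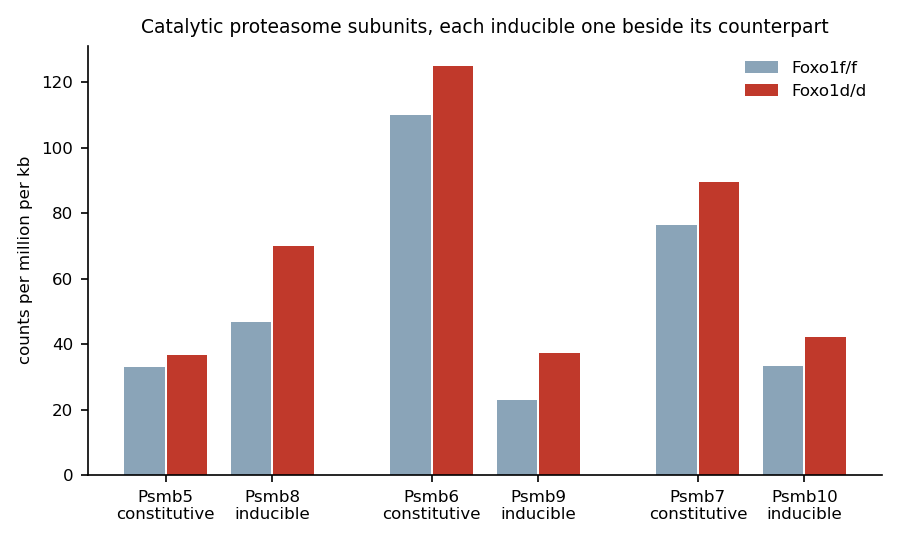
Level of the constitutive subunits *Psmb5*, *Psmb6* and *Psmb7* and of their inducible counterparts *Psmb8*, *Psmb9* and *Psmb10*, in CPM per kb of the longest RefSeq transcript, as bars from 0 for *Foxo1f/f* (blue) and *Foxo1d/d* (red). *Psmb8* and *Psmb9* gain on their counterparts, from 141% to 191% and from 20.8% to 29.8%, and the bars carry no error because single libraries were not used.

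The 3 members with an H2 symbol that encode no antigen-presenting molecule were close to the median of all genes. *H2-Ke6*, an enzyme of lipid and steroid metabolism, had 953 and 1084, a log2 ratio of 0.12 (0.05 to 0.20). *H2-Ke2*, a prefoldin subunit, had 847 and 964, a log2 ratio of 0.12 (0.05 to 0.20). The class I pseudogene *H2-K2* had 223 in each genotype when rounded, a log2 ratio of -0.06 (-0.21 to 0.10).

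The members had a higher median than the genes between them. Along chromosome 17, 30 of the 43 members lie from *H2-K2* to *H2-M2*, 25 of them above 0, and their median was 0.54. *H2-Ke2* is not among them, since it has no gene ID in the table and RefSeq places it just before *H2-K2*. The 103 other genes in the same interval that averaged 10 or more had a median log2 ratio of 0.03, with 57 above 0, of which 9 passed 1.5-fold, while 5 were below the opposite threshold. In the stretch from *H2-Oa* to *H2-Ea-ps*, 13 of 14 members were higher and the median was 0.60. That stretch holds the class II genes with an H2 symbol and *Tap1*, *Tap2*, *Psmb8* and *Psmb9*.

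**Figure D4:**
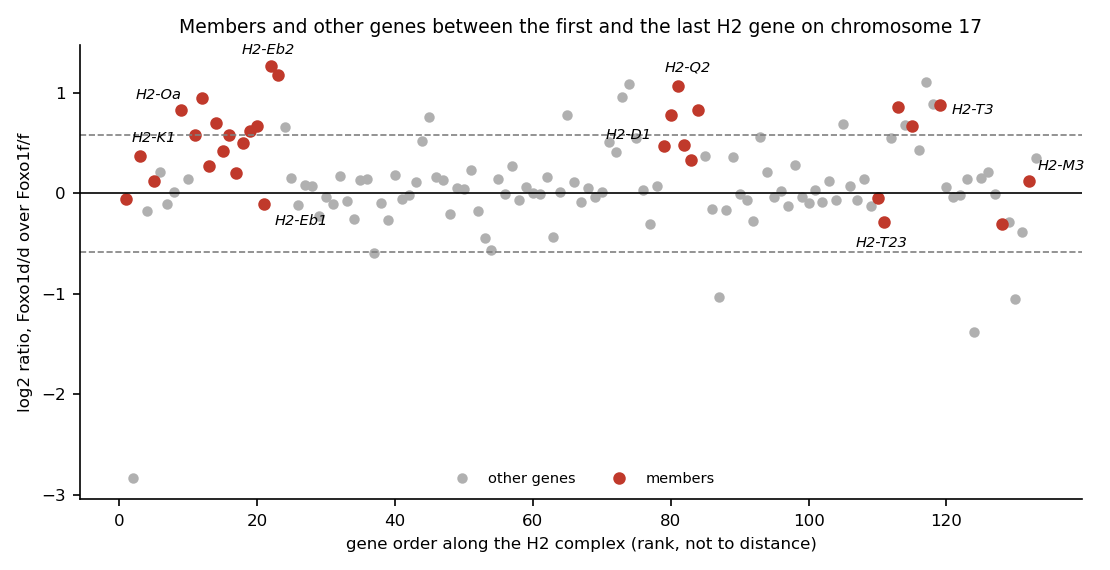
Log2 ratio, *Foxo1d/d* over *Foxo1f/f*, of 133 genes, each with 10 or more counts on average, from *H2-K2* to *H2-M2* on chromosome 17, matched by gene ID, in gene order by rank and not to distance. Red points are the 30 members and grey points the 103 other genes, the solid line marks equal counts and the dashed lines 1.5-fold; members cluster above 0 with a median of 0.54, beside 0.03 for the other genes.

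Factors that act on MHC promoters were mostly near 0 except for *Nlrc5*. *Nlrc5*, the coactivator of class I genes, had 988 and 1679.7, a log2 ratio of 0.70 (0.64 to 0.77), and was the only one of 12 factors over 1.5-fold. The median over the 12 factors, which include the RFX and NF-Y subunits, was 0.07. Genes of general use to both pathways varied in direction. The chaperones *Calr*, *Canx*, *Pdia3* and *Hspa5*, which class I shares with other glycoproteins, had a median log2 ratio of -0.01, and *Calr*, with the most counts over both genotypes, had -0.01, while *Hspa5*, with the most in the controls, had -0.07. Of the 6 endosomal genes that process class II and its peptides, 4 were higher, with a median of 0.13. *Ctsd*, the one over 1.5-fold and with the most counts over both genotypes (*Ctsb* in the controls, at 0.22), had 27163 and 46552, a log2 ratio of 0.72 (0.70 to 0.73). *Ctss*, the protease known to cut the invariant chain in dendritic cells and B cells, had a log2 ratio of 0.42.

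Interferon gamma is known as an inducer of class II, the immunoproteasome and TAP. Most genes of its axis were higher in *Foxo1d/d*. *Ifng* itself was rare, with 9 and 38.7 counts, a log2 ratio of 1.93 (1.44 to 2.64). Of the 21 genes of the interferon gamma axis, 17 were higher, against 55.1% of all genes, and the median was 0.28. Over 1.5-fold higher were 6 of the 21, against 5.43% of all genes. Besides *Ifng* these were *Cxcl9* at 1.01, *Cxcl10* at 0.84, *Ido1* at 0.82, *Socs1* at 0.80 and *Igtp* at 0.61. *Jak1*, with the most counts, had -0.01, and *Gbp3* at -0.11, *Gbp2* at -0.04 and *Ifngr1* at -0.03 were also lower. The part of interferon gamma in the ratios of the members was not tested. Of the 15 type I response genes, 9 were higher (8 under each of 3 other scalings) and the median was 0.03. *Mx1* was over 1.5-fold higher, at 0.69, and *Oas2* and *Oas3* were over 1.5-fold lower, at -1.01 and -1.03; *Bst2*, with the most counts over both genotypes, had 0.39, and *Oas2* had the most in the controls.

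Co-stimulation genes and other class I-like genes pointed in different directions. All 5 co-stimulation genes that averaged 10 or more counts were higher, with a median of 0.47. *Cd86* was over 1.5-fold, at 0.60, and *Icosl*, with the most counts, had 0.30. Of the 6 other class I-like genes with that mean count, 2 were higher and the median was -0.12. *Ulbp1*, a ligand of the activating receptor NKG2D, had 307 and 213, a log2 ratio of -0.59 (-0.73 to -0.44), and *Fcgrt*, the neonatal Fc receptor with the most counts, had -0.17. *Mill1* was listed at 0 in both genotypes.

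Most markers of the leukocytes that carry class II were higher, as were most class II genes. In whole uterus RNA, fewer or more cells of a type and less or more RNA per cell cannot be told apart. The 4 pan-leukocyte markers were all higher, by a median of 0.40. Their sum was 284 CPM in the controls and 376 CPM in *Foxo1d/d*, and *Ptprc* was the most abundant. All 8 dendritic cell markers were higher, 4 of them over 1.5-fold (*Ccr7* at 1.44, *Flt3* at 0.85, *Xcr1* at 0.61 and *Batf3* at 0.60), with a median of 0.59 and a sum of 68.6 and 91.8 CPM. *Zbtb46*, the most abundant of them over both genotypes, had 0.08, and *Itgax*, the most abundant in *Foxo1d/d*, had 0.58. Of the 9 macrophage markers, 8 were higher and 0 over 1.5-fold, with a median of 0.25 and a sum of 569 and 657 CPM, and *C1qa* was the most abundant over both genotypes and *Csf1r* in the controls. The class II group as a whole went from 864 to 1253 CPM. B cell markers were close to the limit of counting, with a sum of 3.93 and 6.19 CPM over all 6. Of the 4 that averaged 10 or more, 3 were higher and *Cr2* was lower, at -0.28. *Cd79b*, the most abundant, was over 1.5-fold higher, at 0.76. No leukocyte marker matched was at 0 in both genotypes, and the part of these markers in the difference of the class II genes was not tested.

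Lymphocytes that read class I and class II were followed in the same way. The T cell markers *Cd3d*, *Cd3e*, *Cd3g*, *Cd4*, *Cd8a* and *Cd8b1* were all over 1.5-fold higher, and their median log2 ratio was 1.23. Their sum was 14.6 CPM in the controls and 30.7 CPM in *Foxo1d/d*. *Cd3g* was the most abundant, at 0.80, the ratio of *Cd8a* was the highest, at 1.94, that of *Cd8b1* was 1.59, that of *Cd3d* 1.37, that of *Cd3e* 1.09 and that of *Cd4* 0.80. The marker *Trac* was not matched. Of the 7 NK cell markers, 6 were higher, with a median of 0.38 and a sum of 122 and 155 CPM. *Ncr1* was the most abundant over both genotypes, at 0.38, and *Gzmb* in the controls, at -0.01, and *Gzma* was over 1.5-fold, at 0.72. The part of these cells in the ratios of the members was not tested.

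Markers of the tissue itself were mostly higher for epithelium and mostly lower for stroma, muscle and vessels. Of 8 epithelial markers, 7 were higher, with a median of 0.17 and a sum of 738 and 882 CPM. *Krt19* was over 1.5-fold higher, at 1.22, and *Cdh1*, the most abundant, had 0.11. Of 8 endometrial stroma markers, 1 was higher, with a median of -0.08, a sum of 6923 and 6727 CPM and *Col1a1* as the most abundant, at 0.11. All 6 smooth muscle markers were lower, with a median of -0.30 and a sum of 6561 and 5287 CPM, and *Myh11*, the most abundant, had -0.43. All 6 endothelial markers were lower as well, with a median of -0.22 and a sum of 1418 and 1187 CPM, and *Pecam1*, the most abundant, had -0.22. Every marker of these 4 lists was counted in both genotypes, and what the balance of tissues adds to the members' ratios was not tested.

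**Figure D5:**
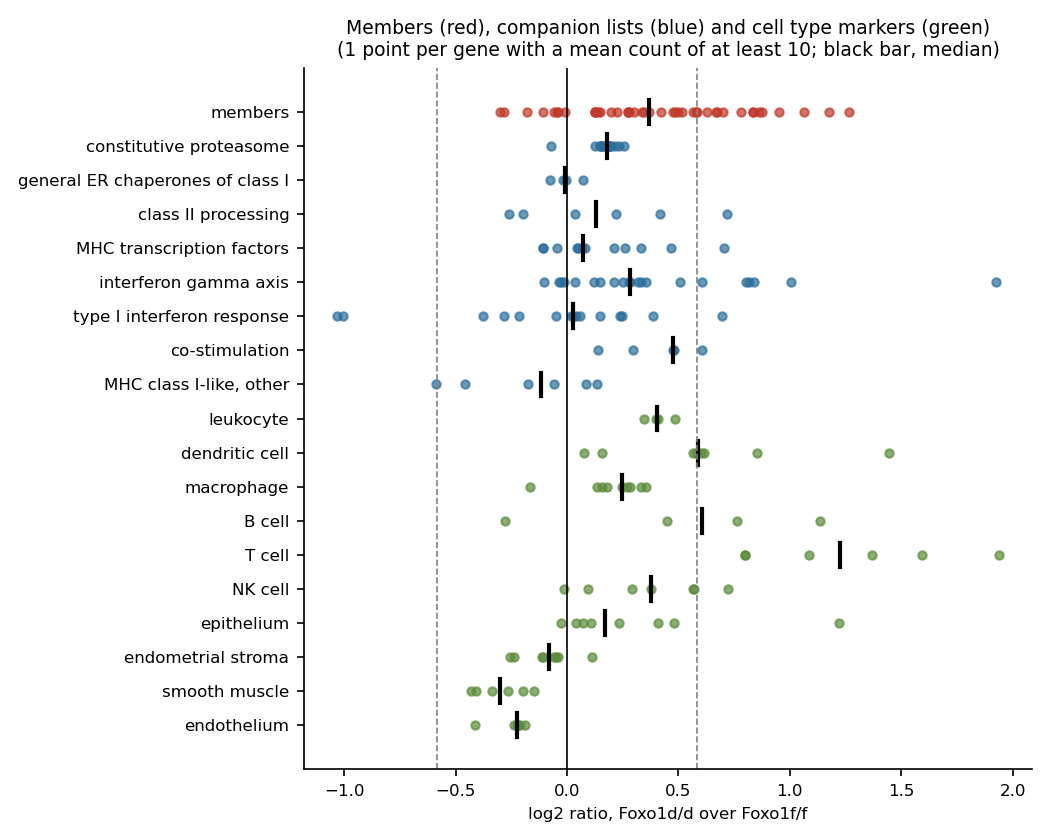
Log2 ratio, *Foxo1d/d* over *Foxo1f/f*, of every gene that averaged 10 or more counts among the members (red), the companion lists (blue) and the cell type markers (green), 1 point per gene, with the median of each list as a black bar. The solid line marks equal counts and the dashed lines 1.5-fold; the members have a median of 0.37, beside 0.18 for the constitutive proteasome, 0.59 for dendritic cell markers, 1.23 for T cell markers and -0.30 for smooth muscle markers.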

How the data were processed

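RNA of whole uteri, in 3 libraries for each genotype, was prepared with a TruSeq RNA kit and sequenced in pairs. The authors trimmed the reads, aligned them with STAR, removed duplicates with Picard and counted reads per RefSeq gene with HTSeq. The study's methods name mm10 and the submitters' processing notes mm9, and tool versions are not given in the sources used here. The table that the authors deposited gives, for each gene, a raw count averaged over the libraries of each genotype, whole after multiplication by 3 (to within 0.02). It also holds the authors' edgeR comparison, a fold change, an average log2 CPM, a p-value and an FDR, none of which was used. It has 0 further columns of per-sample values.

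A pseudocount of 1 was added to the mean counts, which were divided by the genotype totals, and the log2 ratio was taken with a 95% Wilson interval from the counts summed over libraries, 78375043 for *Foxo1f/f* and 81773890 for *Foxo1d/d*. Folds were taken without the pseudocount. Reads are not independent molecules, so intervals and limits cover counting error only. No test was run. Named are *Foxo1*, every member averaging 10 or more counts, and of each companion list the genes over 1.5-fold and the one with the most counts; *Ctss*, *Psmb3* and other genes beside these were named, and the motifs chosen, after their values were seen. Of the genes this rule names, 2 are not reported here. The members and lists were chosen with earlier results of these data known. Lengths, 90-base words and exon overlaps come from GENCODE M21, and gene order and promoters from RefSeq on GRCm38.p6. RefSeq transcript lengths were found for 42 of the 43 counted members, and *Adgre1* was matched as *Emr1*. Alternatives were other scalings, pseudocounts, count minimums, thresholds, member sets and transcript lengths. The steps were run in Python 3.11.15 with numpy 2.4.6, pandas 2.3.3 and matplotlib 3.10.9 and tested on simulated data.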

Additional observations from a re-analysis of the deposited data

How the results depend on the processing

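The direction of each of the 43 counted members was the same under 3 other scalings (centring on the median gene, upper quartile, trimmed mean of log ratios) and under pseudocounts of 0.1 and 5. Of 215 such values, 207 stayed within the counting interval of the gene and 8 moved beyond it under another scaling, in *H2-K1*, *B2m*, *Cd74* and *H2-Aa*. The largest shift of a counted member, 0.20 in *H2-Eb2* with a pseudocount of 5, stayed within its interval. The number of members over 1.5-fold higher, 13, was 13 in all 5 of these settings and with the counting interval required on one side of 0, and 14 with a mean count of at least 1. It was 6 of 36 with a mean count of at least 100 and 7 of 29 without the class I heavy chain genes, against 13 of 43. Every counted member that averaged under 100 was over 1.5-fold higher, so the share over 1.5-fold rests in part on members with few counts. Among all genes the share was also smaller with a mean count of at least 100, at 3.17% against 5.43%. The number of members higher was 24 with a threshold of 25% higher and 3 with 2-fold. Past the lower threshold were 0 members in every setting run. The median log2 ratio of the members was 0.29 with a mean count of at least 100 and 0.45 without the H2-named genes that encode no antigen-presenting molecule, and between 0.30 and 0.37 in the other settings. With the length of all exons, the level of 18 members was over 1.5-fold lower, by up to 3.37-fold for *H2-Aa*, while the median level went from 16.9 to 11.6 CPM per kb. No paired analysis was possible because the values are means over the libraries of a genotype. For the same reason leaving out each library was not run. Depth limits the members with few counts, whose intervals are wide.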

Other observations

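Some genes of the H2 complex outside the members, chosen after their values were seen, differed by over 1.5-fold. Of the 103, those higher in *Foxo1d/d* include the cytokine genes *Tnf* (33.3 counts in the controls, 75 in *Foxo1d/d*, log2 ratio 1.09) and *Ltb* (201 and 408, log2 ratio 0.96) and the complement gene C2 (951 and 1679.7, log2 ratio 0.76). The others higher were *Btnl2*, *Ly6g5b*, *Gm8801*, *C920025E04Rik*, *Gm8909* and *Gm6623*, with log2 ratios from 0.67 to 1.11. *C920025E04Rik*, *Gm8909* and *Gm6623* lie among the T region members, between *H2-Bl* and *H2-T3*, and whether they are class I genes was not examined. Lower were *AA388235*, which lies between *H2-K2* and *H2-K1*, with 138 and 19.3 counts, at -2.84, *Rnf39* at -1.38, *Mog* at -1.05, *Psors1c2* at -1.03 and the matrix gene *Tnxb* at -0.59. *AA388235* thus had the largest difference of these genes beside a neighbour, *H2-K1*, that was higher at 0.37.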
